A study of Mus musculus with 6 samples.

Results

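An antibody against integrin αvβ8, ADWA11, was compared with no labelled treatment (Ctrl) in the photothrombotic (PT) lesion of mouse cortex at 21 days post injury (dpi), by single-nucleus RNA sequencing (snRNA-seq). The comparison was made of the libraries titled for that day, 1 per side and 2 of the 6 in the series. Barcodes with at least 1000 unique molecular identifiers (UMIs, each standing for a captured transcript) and under 5% of UMIs from mitochondrial genes were kept. Predicted doublets were removed, which left 10694 Ctrl and 11287 ADWA11 nuclei, 21981 of the 55015 nuclei of the series. Every gene was then compared within each broad cell class that held at least 30 nuclei in each library, which gave 7 classes: fibroblasts, microglia, macrophages, T and NK cells, endothelial cells, mural cells and astrocytes.

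Both groups were adult mice labelled wild type, on a C57BL/6 background. Both carried the same PT injury, in which a light-activated dye clots cortical vessels. ADWA11 was injected intraperitoneally on the day of injury and weekly after that. The Ctrl library is labelled WT with no treatment, and its labels do not say whether an isotype antibody was given. Each library pooled the lesions of 1 male and 1 female mouse and nuclei were sorted on DNA staining. A group is therefore 1 sample: no difference here has a replicate check and none was tested. Intervals are exact 95% intervals for counting error only. As a further reading, nuclei were called female or male from X- and Y-linked transcripts. Values are given for each sex, which within a library stands for 1 animal. The libraries held different animals, so a female or male ratio sets 1 mouse against another.

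Transforming growth factor-β (TGFβ) is secreted in a latent complex with its own propeptide, bound to matrix by proteins such as Ltbp1 or to cell surfaces by Lrrc32 or Nrros. The integrin αvβ8, a pair of the chains encoded by Itgav and Itgb8, binds that propeptide and sets the active ligand to work. In the brain it is known from astrocytes and other neural cells, where its loss during development gives leaky, malformed vessels. Active TGFβ signals through Tgfbr1 and Tgfbr2 to SMAD proteins, which raise matrix genes and their own inhibitors, such as Smad7 and Pmepa1. In the immune system it sustains microglial identity, tissue-resident lymphocytes and several helper T cell states.

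The libraries held 83026693 (Ctrl) and 84164716 (ADWA11) UMIs, with a median of 4601.5 and 5271 UMIs and of 2274 and 2477 genes per nucleus, and 45 barcodes occurred in both. Female nuclei made up 66.1% of the sex-called Ctrl nuclei and 32.9% of the ADWA11 nuclei, so the animals were unequally represented. Clusters were named from marker genes, as fibroblast-like, microglia-like and so on, and the suffix is left out below. The own markers stayed close between libraries in 6 of the 7 classes, from a summed 11463 to 10067 CPM (UMIs of a gene per 1000000 UMIs) in fibroblasts, 8050.2 to 7643.9 in macrophages and 11085 to 11270 in endothelial cells. They went from 6744.8 to 7669.9 in T and NK cells, 6993.7 to 6037 in astrocytes and 6554.8 to 5608.4 in mural cells. The label of brain tissue was thinly borne out by neurons, with 153 nuclei in Ctrl and 1 in ADWA11, and oligodendrocytes numbered 105 and 1. The neuron counts depend on how clusters were named. Cluster 22, with 2 raised neuron markers and left unnamed, held 32 Ctrl and 50 ADWA11 nuclei. With the 2 libraries clustered alone the log2 ratio of the neuron share was -1.92. Fewer nuclei of a class and a different cut of tissue around the lesion cannot be told apart in these shares.

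T and NK cells held a larger share of the ADWA11 library, and astrocytes and oligodendrocyte precursors (OPCs) a smaller one. T and NK nuclei were 290, or 2.71% (2.41 to 3.04), in Ctrl and 1087, or 9.63% (9.09 to 10.2), in ADWA11, a log2 ratio of 1.83 (1.64 to 2.02). The ratio was 1.67 among female and 1.84 among male nuclei. Astrocytes were 9.14% and 2.93% (log2 ratio -1.64, interval -1.82 to -1.46), again lower in nuclei of each sex. OPCs numbered 153 and 6 (log2 ratio -4.75), and 202 and 40 with predicted doublets kept (-2.40). For vessel cells the ratio differed between female and male nuclei. Endothelial nuclei went from 4.64% (4.25 to 5.05) to 2.76% (2.47 to 3.08). Their log2 ratio was 0.10 in female and -1.35 in male nuclei, and for mural cells it was 0.24 and -1.87. The myeloid classes and the fibroblasts set the denominator, with macrophages at 14.5% and 47.2%, microglia at 12.04% and 0.284%, and fibroblasts at 50.4% and 31.4%.

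**Figure D1:**
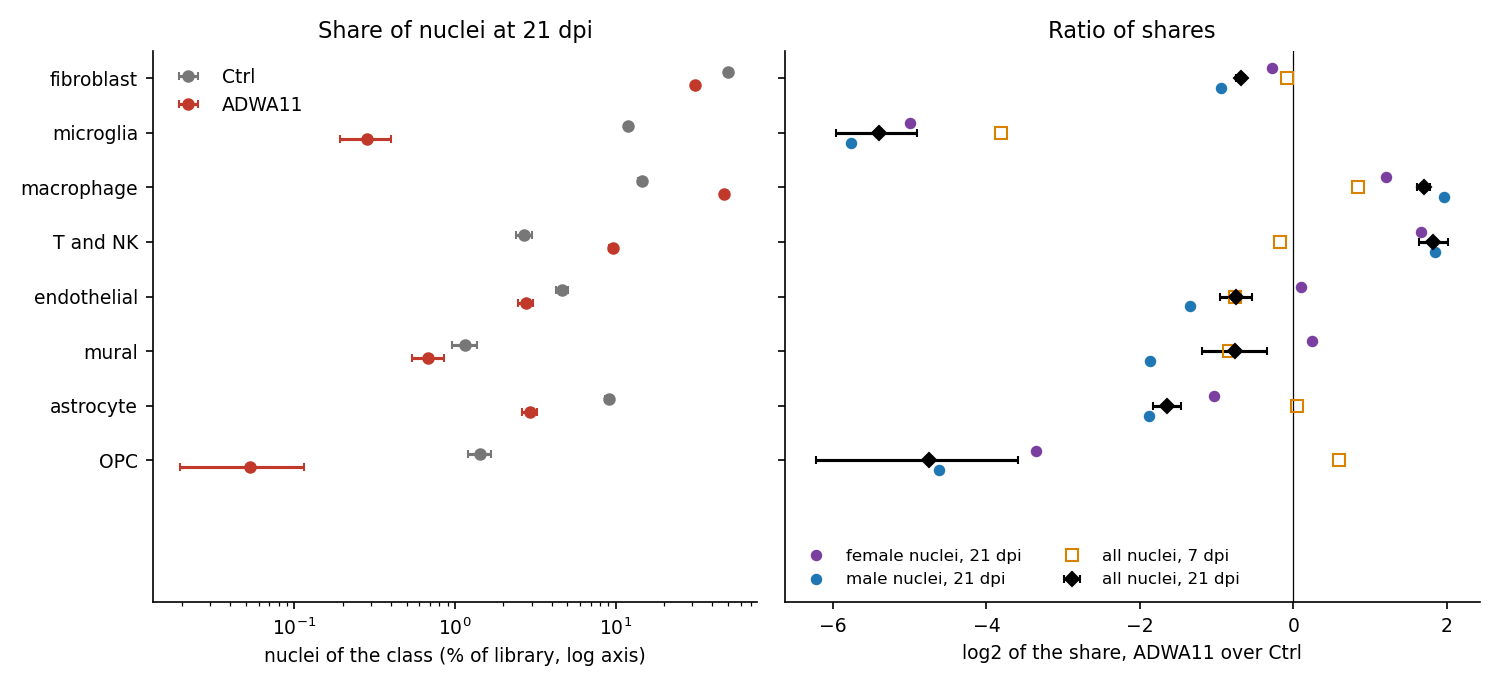
Share of nuclei by class at 21 dpi (left, percent of the library on a log axis, bars are exact 95% intervals) and log2 of the ADWA11 share over the Ctrl share (right), for all nuclei, for female and male nuclei, and at 7 dpi. T and NK cells lay at 1.83 at 21 dpi against -0.17 at 7 dpi, and endothelial and mural points fell on opposite sides of 0 in female and male nuclei.

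Expression was compared as the UMIs of a gene summed over the nuclei of a class, scaled to the CPM of that class. Genes were compared where the rate pooled over both libraries gave at least 20 expected UMIs in the shallower sum, and a gene is said to have risen or fallen where the ADWA11 to Ctrl ratio passed 2-fold, a log2 ratio of 1. The lists held 12 TGFβ targets, 18 genes of integrin αv and TGFβ activation, 26 interferon-stimulated genes, 8 MHC class II genes, 12 immediate early genes and others named below, and each count is of the members that could be compared. The median log2 ratio over all genes compared was near 0 in most classes (0.01 in fibroblasts, 0.03 in endothelial cells, 0.02 in astrocytes, 0.07 in T and NK cells, -0.05 in macrophages, -0.01 in mural cells) and -0.16 in microglia. Across classes, the TGFβ targets had a negative median in fibroblasts, macrophages, T and NK cells and astrocytes and a positive one in endothelial and mural cells, though the endothelial median was -0.04 in female and 0.92 in male nuclei. Interferon-stimulated genes had a positive median in these classes but the mural cells, though in astrocytes (0.11) it was 0.04 in female and -0.26 in male nuclei.

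Endothelial cells of the ADWA11 library held lower levels of the genes that mark brain endothelium and its barrier. All 16 listed barrier genes had a negative log2 ratio and 13 fell, with a median of -1.42 (-1.34 in female and -1.63 in male nuclei). Of all 8274 genes compared 3.13% fell and 1.75% rose. The glucose transporter Slc2a1 (chromosome 4, 119108711 to 119137983, GRCm38) went from 496 to 155 CPM, a log2 ratio of -1.68 (-1.90 to -1.47). It was lower in nuclei of each sex, at 427 and 146 CPM in female and 485 and 200 CPM in male nuclei.

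The amino acid carriers Slc7a5 (341 to 74.5 CPM) and Slc38a5 (75.4 to 19.0 CPM), the monocarboxylate carrier Slc16a1 (72.7 to 11.7 CPM) and the anion carriers Slco1a4 (1256 to 465 CPM) and Slco1c1 (193 to 73.0 CPM) all fell. These carry nutrients, hormones and bile acids across the vessel wall. The efflux pump Abcb1a fell as well, from 886 to 363 CPM (log2 ratio -1.29). The pump Abcg2 stood at 866 and 599 CPM (-0.53). Of the tight junction genes, Cldn5 fell from 492 to 218 CPM (-1.18) and Ocln from 189 to 92.0 CPM (-1.04), and Tjp1 stood at 1225 and 634 CPM (-0.95). The lipid transporter Mfsd2a had 24.7 and 1.46 CPM, the latter from 2 UMIs.

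Lef1, a transcription factor of the Wnt/β-catenin pathway that induces the barrier, fell from 864 to 354 CPM (-1.29), with 858 and 338 CPM in female and 836 and 424 CPM in male nuclei. Apcdd1, a Wnt inhibitor induced by the pathway, fell from 219 to 26.3 CPM (log2 ratio -3.06, interval -3.59 to -2.57). The proteoglycan gene Spock2 (chromosome 10, 60106219 to 60135198) went from 239 to 19.0 CPM (-3.66), and Sox17 stood at 116 and 80.3 CPM (-0.53).

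Plvap, which encodes the diaphragm protein of leaky, fenestrated endothelium and is sparse in mature brain vessels, rose from 101 to 218 CPM (log2 ratio 1.11, interval 0.86 to 1.37). It was higher in female (110 to 223 CPM) and in male nuclei (81.0 to 206 CPM). The coagulation factor gene F8 rose from 63.1 to 215 CPM (1.77), the capillary sialomucin Cd300lg from 29.2 to 93.4 CPM (1.68) and the transcriptional cofactor Zfpm2 from 167 to 570 CPM (1.77). Activation genes did not move as a group, with 1 of 12 compared (14 listed) higher, 2 lower and a median of -0.09. Icam1 had a log2 ratio of 0.24 and Vcam1 of -0.38. The venular receptor Ackr1 fell (-2.22) with 64% of the UMIs of its higher library in 5 nuclei. No angiogenesis gene of 11 compared (15 listed) passed 2-fold in either direction (median 0.22).

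The difference held at equal depth. After each endothelial nucleus was thinned to 1000 UMIs, the barrier genes together gave a median of 5 UMIs per nucleus in Ctrl (496 nuclei) and 2 in ADWA11 (312 nuclei). The share of nuclei with none was 9.07% (6.69 to 11.95) and 23.4% (18.8 to 28.5). Slc2a1 was detected in 24.6% and 10.3% of thinned nuclei, against 0.855% and 0.396% of fibroblasts, which should lack it. Plvap was detected in 8.27% and 20.5%, against 0.260% and 0.339%. Fibroblast markers summed to 2055.6 and 1600.8 CPM, macrophage markers to 1399.5 and 1219.7 CPM, mural markers to 343.6 and 233.6 CPM and astrocyte markers to 377.4 and 235.0 CPM in the endothelial class. Their part in the result, and that of the smaller amount of neural tissue in the ADWA11 library, was not tested. At 7 dpi, in the other pair of libraries, the barrier median was -0.07.

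**Figure D2:**
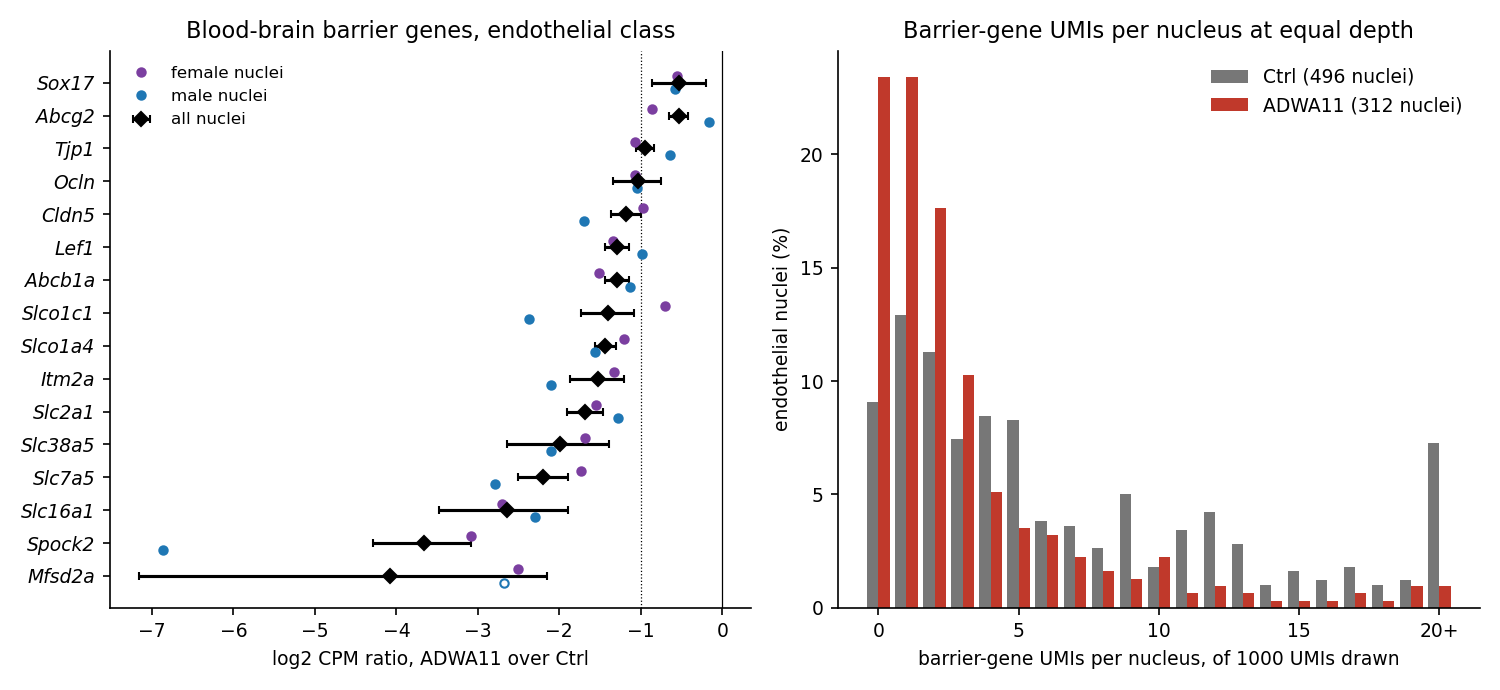
Left, log2 ratio (ADWA11 over Ctrl) of CPM for 16 barrier genes in endothelial nuclei (diamonds with exact 95% intervals for all nuclei, points for female and male nuclei; the open point marks a male ADWA11 sum of 0, set at 3 UMIs); the dotted line marks 2-fold. Right, distribution of barrier-gene UMIs per nucleus after thinning to 1000 UMIs, with 9.07% of Ctrl and 23.4% of ADWA11 nuclei at 0.

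In astrocytes most reactive and homeostatic genes stayed inside 2-fold, while most immediate early genes and secreted growth and guidance factors compared fell. The intermediate filament gene Gfap stood at 712 and 716 CPM, the water channel Aqp4 at 835 and 1035 CPM and the complement gene C3 at 275 and 361 CPM, none past 2-fold. Of 15 reactive genes compared (17 listed) 2 fell and 0 rose. Of all 10105 genes compared 2.21% fell and 1.12% rose. The 2 reactive genes that fell were the iron-binding Lcn2, from 294 to 108 CPM (-1.44), and the protease inhibitor Timp1, from 21.5 to 7.13 CPM (-1.60). Lcn2 was lower in female (291 to 143 CPM) and male nuclei (334 to 76.5 CPM). It fell in each of the 4 classes where it could be compared, and over the whole library from 46.4 to 9.19 CPM. Of 15 homeostatic genes glutamine synthetase Glul (165 to 71.3 CPM, -1.21) and the gap junction gene Gjb6 (-1.04) fell. Over the whole library Glul stood at 149 and 121 CPM, above its astrocyte level in ADWA11, and it fell in 3 of 6 classes compared. The part of background RNA in its fall was not tested.

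All 9 TGFβ targets compared in astrocytes had negative ratios and 3 fell, with a median of -0.65 (-0.81 in female and -0.85 in male nuclei). Pmepa1 (chromosome 2, 173224458 to 173276533), which dampens SMAD signalling, fell from 53.8 to 13.3 CPM (-2.01), and Skil, a SMAD corepressor, from 45.3 to 21.4 CPM (-1.08). The matricellular gene Ccn2 had 21.0 and 1.43 CPM, the latter from 3 UMIs (log2 ratio -3.88, interval -6.18 to -2.30). Pmepa1 was detected in 7.08% and 2.11% of thinned astrocytes and in 12.2% and 2.12% of thinned T and NK nuclei, and its level lay below that of the whole library (216 and 86.2 CPM), so background RNA cannot be told apart from astrocyte RNA for it. Skil lay below its library level as well (115 and 61.4 CPM). Ltbp1, which tethers latent TGFβ to matrix, fell from 73.1 to 19.96 CPM (-1.87) and was lower in female (81.5 to 19.98 CPM) and male nuclei (41.3 to 20.3 CPM). The chains of the blocked integrin did not pass 2-fold: Itgb8 stood at 313 and 261 CPM (-0.26) and Itgav at 171 and 119 CPM (-0.53). The antibody acts on the protein, so these levels say nothing of whether it reached its target.

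Secreted growth and guidance factors fell in astrocytes: 6 of 10 compared (15 listed) passed 2-fold downward and none upward, with a median of -1.23 (-1.20 in female and -0.50 in male nuclei). The neurotrophin gene Bdnf (chromosome 2, 109674700 to 109727007) went from 36.9 to 9.50 CPM (-1.96), with 37.0 and 13.3 CPM in female and 28.6 and 1.56 CPM in male nuclei. Bdnf was detected in 2.46% (1.58 to 3.64) and 0.906% (0.187 to 2.63) of thinned astrocytes, with overlapping intervals. The axon-repelling Slit2 went from 137 to 39.9 CPM (-1.78), and the semaphorins Sema3d (311 to 126 CPM) and Sema3c (159 to 71.8 CPM) fell with it. Slit2 lay far below its library level (1753 and 1192 CPM), so that background RNA cannot be told apart from astrocyte RNA for it, whereas Bdnf, Sema3d and Sema3c lay above theirs in both libraries. Sema3c fell over the whole library too, from 111 to 40.1 CPM, and in macrophages (-1.34) and endothelial cells (-1.32). In fibroblasts it had a ratio of -0.89. The part of background RNA in its fall was not tested. Sema3a went the other way without passing 2-fold, from 50.9 to 99.8 CPM (0.97).

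Immediate early genes, a sign of recent stimulation that handling of tissue can also raise, were lower in 6 of 7 cases in astrocytes, with a median of -1.33. Fos had 31.4 and 13.3 CPM (-1.24), Nr4a1 a ratio of -1.62 and Egr1 of -1.35. Other genes selected by the naming rule were the pentraxin Ptx3, from 60.9 to 8.08 CPM (-2.92), and the adhesion gene Cntn4, from 128 to 19.5 CPM (-2.72), which fell. Ptx3 was detected in 3.49% (2.43 to 4.84) and 1.51% (0.492 to 3.49) of thinned astrocytes, with overlapping intervals. The protease Adamts16 rose from 17.03 to 70.3 CPM (2.05), the potassium channel Kcnc2 from 34.7 to 91.7 CPM (1.40) and ferritin light chain Ftl1 from 210 to 534 CPM (1.35). Over the whole library Ftl1 stood at 247 and 445 CPM, so its astrocyte level lay below that of the library in Ctrl. The part of background RNA in its rise was not tested. Adamts16 was detected in 1.44% and 6.65% of thinned astrocytes. Fibroblast markers summed to 1048 and 640.1 CPM and macrophage markers to 1352.4 and 1376.7 CPM in the astrocyte class, and their part in these values was not tested.

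T and NK cells held a larger share of the nuclei. Most regulatory T cell genes compared rose, most interleukin-17-type genes compared fell and the shared T cell genes stayed inside 2-fold. None of 12 identity genes passed 2-fold (median -0.03): Cd3e, part of the T cell receptor complex, had 344 and 294 CPM, Cd4 had 59.7 and 118 CPM (0.98) and Cd8a a ratio of -0.09. In the whole class 2.83% of 6918 genes rose and 7.01% fell, 196 and 485 genes. The total was 346 genes with pooled cluster weights and 187 with the 2 libraries clustered alone. Pooled cluster weights gave each cluster its share of nuclei over both libraries as its weight in each library. The class joined a main cluster, 84.5% of its nuclei in Ctrl and 97.0% in ADWA11, and a small one.

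Of 8 regulatory T cell genes compared (12 listed) 6 rose and 0 fell, with a median of 1.25 (1.80 in female and 0.88 in male nuclei). Foxp3 (chromosome X, 7573644 to 7595245), the transcription factor that defines these cells, went from 15.2 CPM (13 UMIs) to 74.7 CPM (217 UMIs), a log2 ratio of 2.29 (1.49 to 3.23). It was higher in female (5.15 to 81.3 CPM) and male nuclei (25.9 to 82.1 CPM). The inhibitory receptor Ctla4 rose from 58.6 to 155 CPM (1.40), and the transcription factor Ikzf2 from 809 to 1887 CPM (1.22). Ctla4 was detected in 5.92% (3.49 to 9.31) and 8.85% (7.23 to 10.7) of thinned nuclei, with overlapping intervals. Ikzf2 was detected in 31.7% (26.4 to 37.4) and 36.7% (33.8 to 39.6) of thinned nuclei, with overlapping intervals, and in 19.3% and 17.7% of thinned fibroblasts. The costimulatory receptors Tnfrsf9 (31.6 to 99.5 CPM, 1.65) and Tnfrsf4 (25.8 to 62.3 CPM, 1.27) rose, and the interleukin-2 receptor chain Il2ra went from 57.4 to 117 CPM (1.03). Itgb8, the β chain that the antibody blocks and that regulatory T cells use to activate TGFβ, rose from 19.9 to 134 CPM (2.75) in this class. Its level there lay below that of the whole library in Ctrl (109 CPM) and above it in ADWA11 (80.5 CPM). It was detected in 2.44% and 6.27% of thinned nuclei, and in 9.72% and 11.2% of thinned fibroblasts, which hold the transcript themselves.

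Of 6 genes of interleukin-17-type and γδ T cells compared (11 listed) 5 fell and 0 rose, with a median of -2.17. The cytokine receptor Il23r (chromosome 6, 67422932 to 67491855) fell from 274 to 67.5 CPM (-2.02), from 263 to 77.9 CPM in female and from 341 to 59.4 CPM in male nuclei. The receptor Il1r1 (149 to 25.1 CPM, -2.57), the kinase Blk (144 to 28.9 CPM, -2.32) and the δ chain constant region Trdc (101 to 38.9 CPM, -1.37) fell as well. The class also held more nuclei in the ADWA11 library, so shares and numbers of nuclei differ. Nuclei were sorted and loaded up to a maximum, so their number is no count of cells in the lesion. Thinned nuclei with Il23r were 37 of 287 (12.9%) and 23 of 1085 (2.12%), those with Blk 25 and 16, but those with Trdc 20 and 34.

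Tissue residency genes, several of them raised by TGFβ, fell in 4 of 8 cases (11 listed) and rose in 1 (median -0.75). The integrin chains Itgae (85.5 to 23.8 CPM, -1.85) and Itga1 (431 to 189 CPM, -1.19) and the chemokine receptor Cxcr6 (387 to 166 CPM, -1.22; 77 and 146 thinned nuclei with a UMI) fell, and Prdm1 rose (30.5 to 80.9 CPM, 1.41). The circulation genes all had positive ratios, 8 of 8 compared (10 listed) with a median of 0.67, and 1 rose. The lymphocyte egress receptor S1pr1 had a ratio of 0.69. Among cytotoxic genes 4 of 11 compared (14 listed) rose and 0 fell (median 0.52). These were Klrg1 (5.86 to 49.6 CPM), granzyme Gzma (16.4 to 59.2 CPM), the transcription factor Eomes (15.2 to 52.3 CPM) and perforin Prf1 (26.9 to 55.8 CPM), while Nkg7 had a ratio of -0.72 and Ccl5 of -0.07. The Ctrl class held 853701 UMIs in all, so the Ctrl levels of the genes that rose rest on few UMIs. Klrg1 was detected in 2 of 287 (0.697%, 0.0845 to 2.49) and 37 of 1085 thinned nuclei (3.41%, 2.41 to 4.67), with overlapping intervals. The NK receptor genes Klrb1c (29.3 to 144 CPM, 2.30) and Klra7 (16.4 to 136 CPM, 3.05), which belong to families of near-identical copies that can share UMIs, were among the 5 genes with the largest rise that the naming rule selected. Of 7 checkpoint genes compared (10 listed) 3 rose, with Tigit going from 12.9 to 48.2 CPM (1.90) and Tox from 1189 to 2458 CPM (1.05), and Pdcd1 had a ratio of 0.36.

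All 6 TGFβ targets compared in T and NK cells had negative ratios and 2 fell (median -0.85). Pmepa1 went from 134 to 22.7 CPM (-2.56), with 139 and 22.0 CPM in female and 104 and 21.0 CPM in male nuclei, below its library levels of 216 and 86.2 CPM, and Smad7 stood at 172 and 102 CPM (-0.76). The other gene that fell, the matrix gene Tgfbi (-1.33), had a ratio of -0.09 with pooled cluster weights. Markers of other cells moved in this class too: fibroblast markers summed to 3168.6 and 1018.3 CPM, macrophage markers to 3222.4 and 1798.5 CPM, neutrophil markers to 26.9 and 241.6 CPM and B cell and plasma cell markers to 358.4 and 780.5 CPM. Their part in the result was not tested. The ribosomal protein genes Rpl13a (641 to 267 CPM) and Rpl29 (234 to 83.6 CPM) were selected by the naming rule. Their falls shrank to -0.10 and -0.29 with pooled cluster weights.

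**Figure D3:**
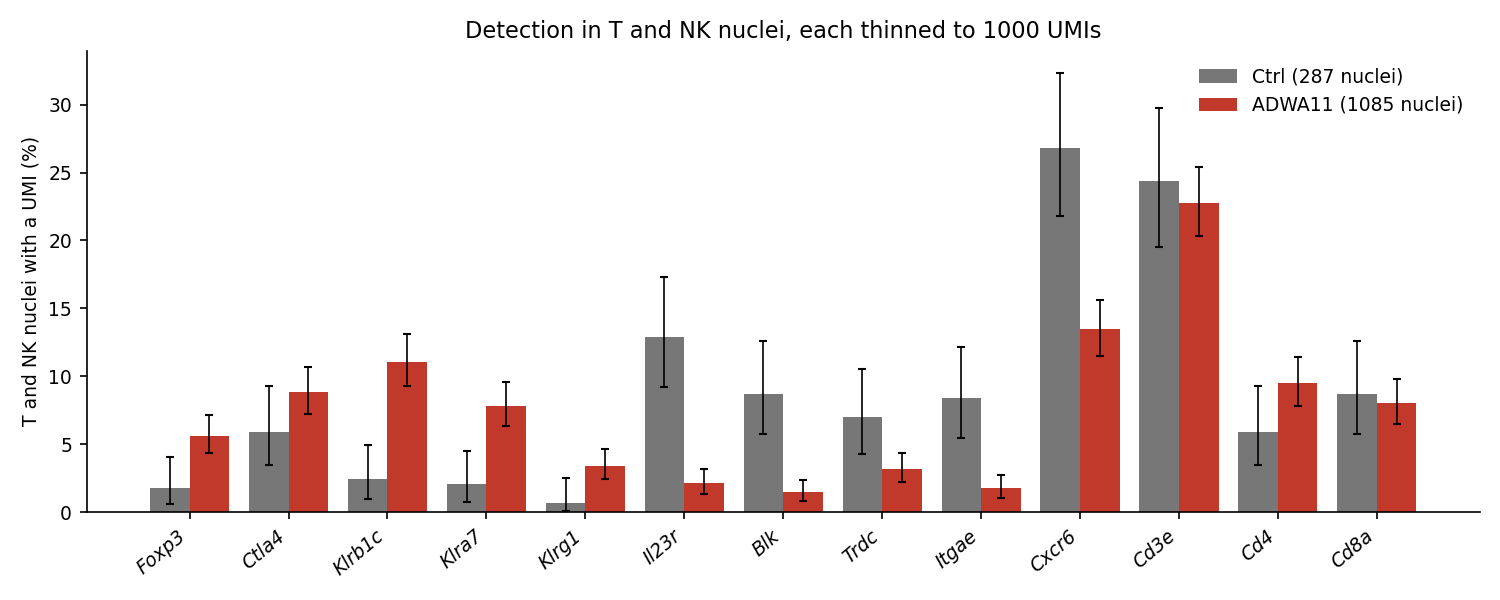
Percent of T and NK nuclei with at least 1 UMI of each gene after thinning to 1000 UMIs, in Ctrl (287 nuclei) and ADWA11 (1085 nuclei), with exact 95% intervals. Foxp3 went from 1.74% to 5.62% and Klrb1c from 2.44% to 11.1%, Il23r from 12.9% to 2.12%, and Cd3e stood at 24.4% and 22.8%.

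Fibroblasts of the ADWA11 library held more RNA of factors that attract or keep lymphocytes. Of 13 such genes compared (16 listed) 9 rose and 0 fell, with a median of 1.501 (1.09 with pooled cluster weights). Of all 16452 genes compared 2.98% rose and 2.68% fell. Cxcl12 (chromosome 6, 117168535 to 117181367), a chemokine for T and B cells and their precursors, went from 149 to 422 CPM, a log2 ratio of 1.501 (1.45 to 1.55). It went from 157 to 292 CPM in female nuclei and from 144 to 494 CPM in male nuclei. The lymphocyte survival factors Il7 (3.66 to 11.8 CPM, 1.69) and Tnfsf13b (4.77 to 11.3 CPM, 1.25) rose. So did the chemokines Ccl8 (5.51 to 23.5 CPM, 2.09) and Ccl5 (2.41 to 8.81 CPM, 1.87) and the costimulatory ligand Cd80 (130 to 284 CPM, 1.12). Cxcl13, the B cell follicle chemokine, had 8 and 191 UMIs (0.238 and 6.73 CPM), with 63% of the ADWA11 UMIs in 5 nuclei, so its ratio rests on few nuclei. Il15 (0.03), Cxcl16 (0.20), Vcam1 (0.69) and Il33 (179 to 136 CPM, -0.40) stayed inside 2-fold.

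**Figure D4:**
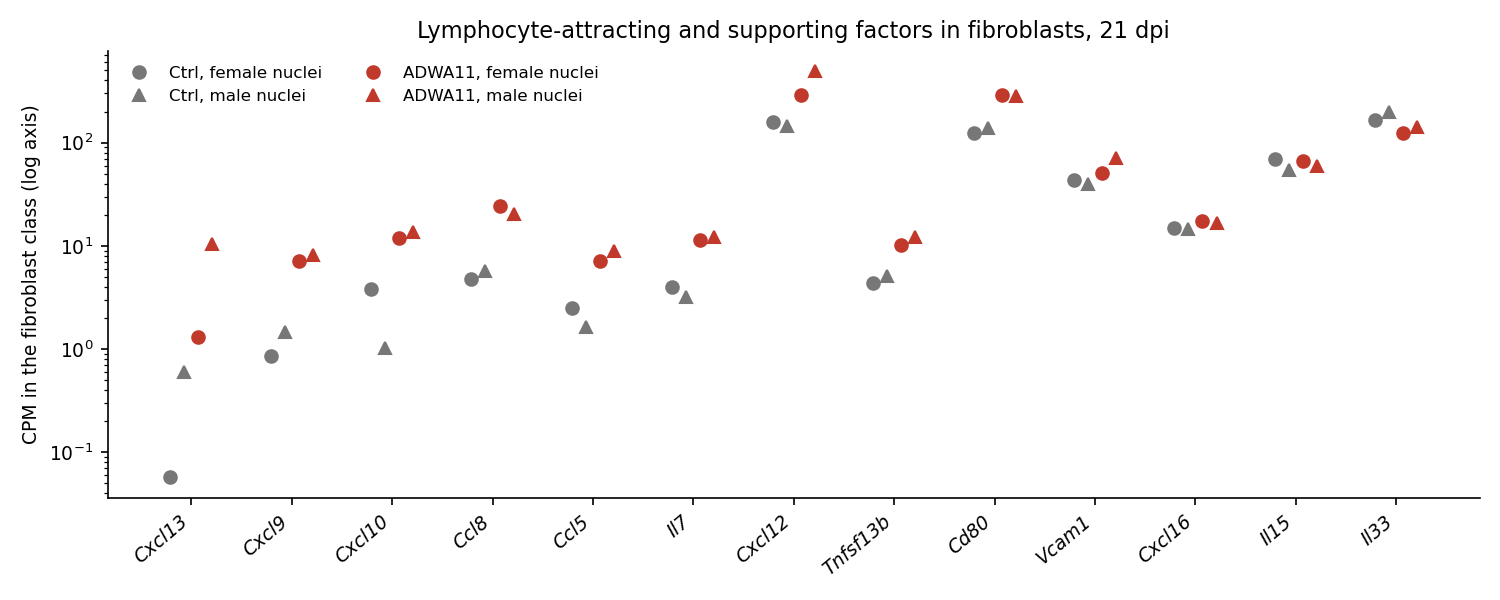
CPM (log axis) of 13 lymphocyte-attracting and supporting factors in fibroblast nuclei of each library, by sex of the nuclei. The 2 ADWA11 points lay above the 2 Ctrl points for Cxcl12, Il7, Ccl8, Ccl5, Tnfsf13b and Cd80, whereas Il33 points lay lower.

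A minority of complement genes rose in fibroblasts beside these, with a median of 0.16 over the list. The central complement component C3 went from 18.9 to 101 CPM (2.42), with 16.1 and 77.2 CPM in female and 17.2 and 106 CPM in male nuclei. The C1 proteases C1s1 (24.8 to 76.2 CPM, 1.62) and C1ra (12.98 to 34.6 CPM, 1.42) rose, 3 of 12 complement genes with none lower. The metalloproteinase Mmp3 rose from 22.7 to 193 CPM (3.09) and the neutrophil chemokine Cxcl5 from 1.82 to 21.4 CPM (3.56). Elastin, Eln, fell from 203 to 24.2 CPM (-3.07, or -2.15 with pooled cluster weights). It stood at 200 and 22.2 CPM in female and 217 and 25.4 CPM in male nuclei. The growth factor Fgf18 fell from 11.9 to 1.80 CPM (-2.73, or -1.54 with pooled cluster weights). Frmpd2 had 2 UMIs in ADWA11, a log2 ratio of -6.01 (-9.06 to -4.13), or -4.29 with pooled cluster weights.

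In the TGFβ list of 12 genes, 2 fell in fibroblasts and none rose (median -0.30): Ccn2 went from 49.8 to 21.8 CPM (-1.19), while Pmepa1 stood at 298 and 184 CPM (-0.70) and Tnc at a ratio of 0.08. Ltbp1 (chromosome 17, 75005568 to 75392512) was the only one of 17 genes of integrin αv and latent TGFβ to pass 2-fold, from 92.3 to 31.1 CPM (-1.57), and Itgb8 had a ratio of 0.18. The nuclei shifted between clusters, with cluster 3 holding 32.6% of Ctrl and 63.3% of ADWA11 fibroblasts and cluster 5 holding 28.6% and 11.7%. Macrophage markers summed to 831.8 and 589.8 CPM and astrocyte markers to 1054 and 929.3 CPM in the class. T and NK markers went from 26.4 to 39.8 CPM, with 4 of 10 compared higher by 2-fold, and neutrophil markers from 16.7 to 35.5 CPM, with 3 of 5. Ccl8 and Ccl5 lay below their library levels, which went from 8.73 to 92.9 CPM and from 7.62 to 23.2 CPM, whereas Cxcl12, Il7 and Cd80 lay above theirs in both libraries. The part of these in the result was not tested.

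Interferon-stimulated genes and genes of the major histocompatibility complex class II (MHC II), which present antigen to CD4 T cells, had positive medians in fibroblasts and macrophages. In fibroblasts all 24 interferon-stimulated genes compared had positive ratios and 8 rose (median 0.74; 0.54 in female and 0.85 in male nuclei). Among them were the interferon-inducible GTPases Gbp5 (12.5 to 36.6 CPM, 1.55) and Iigp1 (33.6 to 103 CPM, 1.61) and the MHC class I regulator Nlrc5 (16.1 to 46.0 CPM, 1.52). The T cell chemokine Cxcl10 went from 2.86 to 13.4 CPM (2.23), with 31% of the ADWA11 UMIs in 5 nuclei. Gbp2 stood at 18.1 and 35.1 CPM (0.95). Over the whole library Gbp5 stood at 16.8 and 35.5 CPM, Iigp1 at 31.8 and 129 CPM and Nlrc5 at 47.8 and 133 CPM, close to or above the fibroblast levels, and the part of background RNA was not tested. The Gbp and H2 genes belong to families of similar copies, so some UMIs may be split between members. The 250 bases before the start of 5 such genes are shown from the RefSeq annotation of GRCm38.p6, each 5′ to 3′ on the strand of the gene. Capitals mark matches, on either strand, to the Y box core ATTGG in the H2 genes and to the core of the interferon-stimulated response element (TTTC, 2 bases of any kind and TTTC) in the others. H2-Eb1 lies at chr17:34305617-34305866 on the plus strand, H2-Aa at chr17:34287824-34288073 on the minus strand. Gbp5 lies at chr3:142496684-142496933 and Gbp2 at chr3:142620413-142620662 on the plus strand, and Cxcl10 at chr5:92348890-92349139 on the minus strand.
H2-Eb1: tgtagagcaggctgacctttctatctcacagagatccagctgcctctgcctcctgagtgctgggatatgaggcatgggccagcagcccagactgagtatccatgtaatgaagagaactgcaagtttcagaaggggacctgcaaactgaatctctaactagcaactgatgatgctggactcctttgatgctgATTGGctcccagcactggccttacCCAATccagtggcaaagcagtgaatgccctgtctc
H2-Aa: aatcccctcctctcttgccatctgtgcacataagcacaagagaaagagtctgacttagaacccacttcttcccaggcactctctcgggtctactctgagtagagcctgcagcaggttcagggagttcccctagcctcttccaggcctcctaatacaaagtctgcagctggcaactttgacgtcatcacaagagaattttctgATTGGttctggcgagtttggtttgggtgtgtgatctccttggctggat
Gbp5: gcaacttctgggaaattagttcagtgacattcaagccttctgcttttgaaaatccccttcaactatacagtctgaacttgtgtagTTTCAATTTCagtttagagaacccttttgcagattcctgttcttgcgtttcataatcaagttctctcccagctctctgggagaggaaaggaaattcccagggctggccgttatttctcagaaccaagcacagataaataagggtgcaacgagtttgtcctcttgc
Gbp2: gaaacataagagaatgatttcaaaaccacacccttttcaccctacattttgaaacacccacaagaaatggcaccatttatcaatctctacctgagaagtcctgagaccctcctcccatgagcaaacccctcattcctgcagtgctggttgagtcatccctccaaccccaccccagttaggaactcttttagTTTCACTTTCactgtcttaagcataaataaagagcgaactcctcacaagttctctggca
Cxcl10: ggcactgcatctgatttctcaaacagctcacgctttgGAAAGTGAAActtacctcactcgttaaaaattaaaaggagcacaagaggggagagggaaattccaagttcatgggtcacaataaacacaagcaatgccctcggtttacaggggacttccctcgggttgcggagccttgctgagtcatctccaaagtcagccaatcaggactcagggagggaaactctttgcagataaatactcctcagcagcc

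The Y box core occurred in each of the 5 MHC II members with a window in the table, of 8 in the list, and in 33.85% of all 32851 windows. The response element core occurred in 11 of 21 interferon-list members with a window, of 26 in the list, and in 2.98% of all windows. The window of Cxcl10 also held 1 Y box core. These are matches of letters in a window and no evidence of binding.

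Macrophages lay in different clusters in the 2 libraries, so their genes were read within clusters. Cluster 0 held 36.4% of Ctrl and 89.9% of ADWA11 macrophages, and cluster 1 held 48.3% and 8.89%. Over the whole class 2.74% of 11973 genes rose and 6.02% fell. Over cluster 0 alone 2.03% of 9654 rose and 1.92% fell, and over cluster 1 alone 2.72% of 9088 rose and 5.07% fell.

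Within cluster 1, 12 of 19 interferon-stimulated genes rose and 0 fell (median 1.27): Gbp5 from 9.88 to 56.0 CPM (2.503), Iigp1 from 83.3 to 335 CPM (2.01) and Gbp7 from 35.6 to 121 CPM (1.77). Iigp1 was higher in female (85.9 to 194 CPM) and in male nuclei (91.0 to 393 CPM). Within cluster 0, 17 of 17 had positive ratios and 5 rose (median 0.70). There Iigp1 had a ratio of -0.42 in female and 3.16 in male nuclei and Gbp5 of -0.83 in female nuclei. The rise of these genes was therefore not seen in nuclei of each sex.

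MHC II genes rose in both clusters, 6 of 7 in each, with a median of 1.39 in cluster 0 and 2.60 in cluster 1. H2-Aa, an α chain, went from 97.3 to 256 CPM in cluster 0 and from 52.0 to 413 CPM in cluster 1, where it was higher in female (47.4 to 304 CPM) and male nuclei (48.2 to 454 CPM). Their master regulator Ciita rose in cluster 0 from 74.5 to 216 CPM (1.54) and the invariant chain Cd74 from 228 to 531 CPM (1.22). MHC II genes rose as well in endothelial cells (4 of 4, median 2.03), astrocytes (5 of 5, median 1.89) and fibroblasts (4 of 7, median 1.34). H2-Aa over the whole library went from 38.9 to 185 CPM and stayed above its level in those classes. The part of background RNA in those rises was not tested. In T and NK cells 4 of 7 fell (median -1.55), but 88% of the Ctrl UMIs of H2-Aa lay in 5 nuclei. The median there was 0.26 with pooled cluster weights.

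TGFβ targets had negative ratios in each of 7 cases in both macrophage clusters. In cluster 0, 3 fell (median -0.76): Pmepa1 from 40.9 to 6.60 CPM (-2.63), in female (38.4 to 6.28 CPM) and male nuclei (43.4 to 6.52 CPM), Smad7 from 29.1 to 7.85 CPM (-1.89) and Skil from 106 to 47.6 CPM (-1.16). In cluster 1, 4 fell (median -1.59), with Pmepa1 going from 204 to 16.98 CPM (-3.58) and Skil from 144 to 34.4 CPM (-2.07). Over the whole library Pmepa1 stood at 216 and 86.2 CPM and Smad7 at 64.7 and 34.7 CPM, above their level in either cluster, and Skil at 115 and 61.4 CPM, exceeded only in cluster 1 of Ctrl, so background RNA cannot be told apart from macrophage RNA for them. Fibroblast markers summed to 989 and 446 CPM in cluster 0 and to 1111 and 732 CPM in cluster 1, and microglia markers to 508 and 390 CPM and to 1096 and 677 CPM. The part of these in the falls was not tested. The receptor gene Tgfbr1 fell in both, from 933 to 411 CPM and from 997 to 228 CPM, while Tgfbr2 had ratios of 0.46 and 0.36.

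The chemokine gene Ccl8 and the adhesion gene Vcam1 rose in both macrophage clusters. The monocyte chemokine Ccl8 (chromosome 11, 82115185 to 82116799) went from 11.4 to 130 CPM in cluster 0 (3.51) and from 70.1 to 708 CPM in cluster 1 (3.34), and the integrin ligand Vcam1 from 31.2 to 164 CPM (2.39) and from 66.5 to 482 CPM (2.86). Of 12 inflammatory genes compared (17 listed) in cluster 0, 5 rose and 0 fell, and of 5 compared in cluster 1 none passed 2-fold. Those that rose in cluster 0 included Il1a (28.7 to 60.9 CPM) and Ccl4 (34.6 to 86.8 CPM), while Tnf had a ratio of -0.64. The membrane repair gene Dysf (3.82) and Paqr9 (3.79) rose and the serotonin receptor gene Htr2b (-2.59) fell in cluster 0. In cluster 1 the growth factor family gene Fgf13 fell from 448 to 6.88 CPM (-6.02) and the GTPase regulator Arhgap24 from 757 to 51.0 CPM (-3.89). Over the whole class 10 of 10 cell cycle genes compared (14 listed) fell with a median of -3.31, which was -0.31 with pooled cluster weights.

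Microglia were nearly missing from the ADWA11 library, with 1287 nuclei in Ctrl and 32 in ADWA11, and the latter had a median of 1414.5 UMIs. Their own 8 markers summed to 1594.6 CPM in Ctrl and 677.8 CPM in ADWA11, where 2 were at 0. In this shallow comparison 3.05% of 919 genes rose and 11.9% fell, and 5 of 6 homeostatic genes compared (16 listed) fell (median -1.66). The fractalkine receptor Cx3cr1 went from 310 to 72.6 CPM (-2.09) and Arhgap24 from 1672 to 194 CPM (-3.11), and the receptor Csf1r had a ratio of -0.70. Microglia and macrophages were also joined, which sets aside the line between these classes in the main clustering. With the 2 libraries clustered alone no cluster was named microglia, so the joined class then held macrophages only. In the main clustering 13 of 15 homeostatic genes fell in the joined class (median -2.44, or -0.90 with pooled cluster weights). There 7 of 12 TGFβ targets fell (median -1.22, or -1.09) and 6 of 8 MHC II genes rose (median 2.49, or 1.61). Of all 13412 genes compared there 3.87% rose and 8.84% fell.

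Mural cells, the contractile cells of vessel walls, changed little in their identity genes, of which 1 of 9 compared (12 listed) fell and 0 rose (median 0.06). Of all 4036 genes compared 2.11% rose and 2.28% fell. The potassium channel subunit Abcc9, a pericyte gene, fell from 957 to 376 CPM (-1.35), while the contractile Acta2 stood at 432 and 687 CPM (0.67) and the receptor Notch3 at a ratio of 0.06. Plxdc2 fell from 901 to 281 CPM (-1.68). With 124 and 77 nuclei, fibroblast markers at 3479.3 and 3041.1 CPM and endothelial markers at 917.8 and 539.0 CPM, few smaller differences could be seen.

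Cluster 20 had 9 raised dendritic cell markers, but its top 10 genes held more markers of a different list, so no name was given. It had 132 nuclei in Ctrl and 520 in ADWA11 and was compared on its own, with 2.06% of 4365 genes higher and 1.72% lower. The monocyte and macrophage lectin genes Clec4a3 (58.2 to 229 CPM, 1.98) and Clec4a1 (51.2 to 157 CPM, 1.62) rose. So did the adhesion receptor Adgre4 (32.6 to 167 CPM, 2.36) and the mannose receptor Mrc1 (175 to 531 CPM, 1.60). Their levels over the whole library rose as well. Mrc1 went from 106 to 479 CPM there, Clec4a3 from 12.3 to 88.6, Clec4a1 from 6.14 to 48.3 and Adgre4 from 0.796 to 6.55. The part of background RNA in these rises was not tested. Tgfbr1 fell from 1203 to 244 CPM (-2.30), as in both macrophage clusters.

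Some genes moved the same way in nearly every class, along with their level in the whole library. The macrophage-secreted Cd5l rose in 7 of 7 classes that could be compared, with 66.8 and 683 CPM over the library, and the nuclear receptor Pparg in 5 of 6 (71.8 and 390 CPM). The secreted phosphoprotein Spp1 fell in 6 of 7 (247 and 100 CPM), Plxdc2 in 5 of 7 (809 and 357 CPM) and prostaglandin D synthase Ptgds in 5 of 6 (509 and 199 CPM). The part of background RNA in these shared changes was not tested.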

How the data were processed

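Nuclei of photothrombotic lesions were profiled with 10x 3′ v3.1 chemistry. The authors aligned the reads to mm10 with Cell Ranger (7.2.0 in the file headers, 7.1.0 in the processing notes of the submitters) and deposited 1 matrix of raw UMI counts per gene and barcode for each library, with 32285 genes; no cell annotation was used here. All 6 libraries were clustered together in R 4.3.3 with Seurat 5.3.0 and sctransform 0.4.2 (3000 variable genes, 30 principal components, resolution 0.5) after barcodes under 1000 UMIs or at 5% or more mitochondrial UMIs were left out, and the highest doublet scores were removed at 0.8% per 1000 barcodes (1375 in Ctrl and 1369 in ADWA11). Clusters with at least 3 raised markers of 1 of 14 marker lists were named, unless their top 10 genes held more markers of another list or their nuclei were shallow. A female or male call came from Xist and Y-linked transcripts.

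Counts were summed per class and library and compared as CPM ratios with numpy 2.4.6, pandas 2.3.3 and scipy 1.17.1 in Python 3.11.15. Intervals are exact (Clopper-Pearson for shares, conditional binomial for ratios), and sums of 0 were set at 3 UMIs. edgeR 4.0.16 gave the TMM scaling alternative only, with no test. The genes named were the members of fixed lists, the genes past 2-fold in most classes and, per class, up to 5 in each direction with the largest change among genes with at least 50 expected UMIs, changed the same way in female and male nuclei, with at most 25% of the UMIs of the higher library in 5 nuclei and a class level at least that of the library; mitochondrial, sex-linked marker and unnamed-model genes were left out. Members and lists were chosen with earlier results of these data known. Scripts were tested on simulated data. Coordinates are from GENCODE M21 on GRCm38, which matched 32158 of the 32285 genes. Alternatives tried were TMM scaling, mean CPM per nucleus, other UMI minima, doublet calls kept and log-normalised or 2-library clustering. Other denominators, pooled cluster weights and each sex alone were tried as well. Pooled cluster weights used clusters with 10 or more nuclei in each library. Clusters 0, 1 and 20 alone, microglia joined with macrophages, and fibroblasts without cluster 7 were added after the data were seen. A few list members are counted in their lists but not reported here by name.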

Additional observations from a re-analysis of the deposited data

Results flagged for a closer look

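The difference between ADWA11 and Ctrl in the share of nuclei went opposite ways at the 2 times for 4 groups of nuclei, in female as in male nuclei. For T and NK cells the log2 ratio of shares was -0.17 at 7 dpi, with a counting interval of -0.51 to 0.16, and 1.83 at 21 dpi. For astrocytes it was 0.05 (-0.26 to 0.35) and -1.64, so that at 7 dpi neither class stood apart from 0. For OPCs it was 0.60 and -4.75, and for the nuclei of unnamed clusters -0.52 and 1.72. Sex-called OPCs at 21 dpi were 94 female and 34 male in Ctrl but 5 female and 0 male in ADWA11. Their male ratio therefore rests on a count of 0 set at 3. With the 2 libraries clustered alone the 21 dpi value of the unnamed nuclei was -0.63, the same sign as at 7 dpi. That clustering left other clusters unnamed, such as a cluster of 2094 Ctrl and 65 ADWA11 nuclei before doublet removal. The 2 values for 21 dpi therefore cover different nuclei. The difference between the times was not tested, since each time had 1 library per side.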

How the results depend on the processing

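No paired analysis was possible because each group was 1 library and no result came from a test. With 1 library per side, no value carries replicate error, and sparse genes and small classes are limited by depth. For the genes of the naming rule, which required the same direction in female and male nuclei, 747 of 767 values stayed past 2-fold and 20 did not. Other genes had opposite signs by sex, as given beside Iigp1 and Gbp5 in cluster 0 and Bdnf in fibroblasts. The cause of the changes below was not tested.

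Log2 ratios of shares moved as follows. With the 2 libraries clustered alone, clusters were named anew. None was named microglia, and clusters led by microglia or fibroblast markers were left unnamed, so classes held other nuclei than before. The log2 ratios there were -7.09 for OPCs, 2.08 for T and NK cells, -0.43 for fibroblasts and 2.47 for macrophages. They were 2.47 for all myeloid nuclei, -1.92 for neurons and -0.63 for unnamed nuclei, a change of sign over different nuclei. Without fibroblasts in the denominator they were 1.36 for T and NK cells, -2.11 for astrocytes, -1.22 for endothelial cells, 1.23 for macrophages, -1.23 for mural cells, 0.37 for myeloid nuclei and 1.25 for unnamed nuclei. Without neural classes they were -0.84 for fibroblasts, 1.54 for macrophages and 0.68 for myeloid nuclei. With doublet calls kept they were -2.40 for OPCs, 1.78 for macrophages, 0.92 for myeloid nuclei, -4.30 for neurons and -2.66 for oligodendrocytes. In female nuclei they were -3.35 for OPCs, -1.03 for astrocytes, -0.28 for fibroblasts, 1.21 for macrophages, 0.46 for myeloid nuclei and -3.31 for oligodendrocytes, and reversed for endothelial (0.10) and mural cells (0.24). In male nuclei they were -1.88 for astrocytes, -1.35 for endothelial cells, -0.95 for fibroblasts, 1.97 for macrophages, -1.87 for mural cells, 1.00 for myeloid nuclei and -3.78 for neurons. On log-normalised clusters they were -1.41 for astrocytes, -0.82 for fibroblasts, 2.16 for macrophages and 1.20 for unnamed nuclei, and without cluster 7 it was -0.61 for fibroblasts.

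Counts of genes past 2-fold followed the minimum of expected UMIs. At 10 they were 1157 in T and NK cells, 638 in astrocytes, 646 in cluster 0, 1117 in cluster 1, 386 in cluster 20, 715 in endothelial cells, 297 in microglia and 479 in mural cells. At 50 they were 289, 147, 194, 367, 52, 185, 42 and 56 in the same order, with 584 in fibroblasts, 614 in macrophages and 1121 in myeloid nuclei. With the 2 libraries clustered alone they were 187 in T and NK cells and 673 in macrophages and in myeloid nuclei. In T and NK cells they were 346 with pooled cluster weights and 367 on log-normalised clusters. In female nuclei they were 335 in T and NK cells, 294 in cluster 1, 606 in fibroblasts and 19 in microglia. In male nuclei they were 244 in T and NK cells, 174 in astrocytes, 201 in cluster 0, 80 in cluster 20, 253 in endothelial cells, 494 in macrophages, 88 in microglia and 1019 in myeloid nuclei.

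TMM scaling moved the median over all genes from -0.16 to -0.34 in microglia, -0.05 to 0.07 in macrophages, -0.06 to 0.05 in myeloid nuclei and -0.03 to 0.07 in cluster 0. It took the higher and lower counts from 28 and 109 to 16 and 147 in microglia, from 90 and 75 to 132 and 56 in cluster 20 and from 196 and 185 to 231 and 145 in cluster 0. The MHC II median of T and NK cells, -1.55, reversed to 1.84 on log-normalised clusters and 1.92 with the 2 libraries clustered alone. It was 0.26 with pooled cluster weights. The B cell and plasma cell median, 1.03, reversed to -0.16 in female nuclei.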

Other observations

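Signalling ligands of the bone morphogenetic protein (BMP) and Wnt families and their inhibitors split in the fibroblasts, with 3 of 18 higher and 2 lower by 2-fold, beside 2.98% and 2.68% of all genes compared there. The BMP inhibitor Chrdl1 rose from 26.5 to 72.0 CPM (log2 ratio 1.44) and the Wnt modulator Sfrp2 from 2.06 to 8.38 CPM (2.03), and Bmp2 rose (1.29), whereas Bmp6 fell from 290 to 121 CPM (-1.26). The Wnt inhibitor Dkk2 fell from 18.6 to 7.64 CPM (-1.29), but its ratio was -0.16 in female and -2.53 in male nuclei. In endothelial cells Dkk2 rose (1.05), and Wnt5a fell from 32.0 to 5.11 CPM (-2.65).

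The guidance factor Slit3 rose in fibroblasts, from 403 to 915 CPM (1.18). Bdnf rose in fibroblasts from 4.35 to 15.2 CPM (1.80), with -0.07 in female and 3.10 in male nuclei, and fell in astrocytes (-1.96). Among lipid-handling genes of macrophages all 13 had positive ratios and 3 rose over the whole class, but 2 of 13 were negative in cluster 0 and 7 of 13 in cluster 1 (median -0.07). Over the whole class the fatty acid binding gene Fabp4 went from 82.1 to 332 CPM (2.02) and Pparg from 373 to 820 CPM (1.14); within cluster 0, Fabp4 went from 164 to 362 CPM (1.14) and Pparg had a ratio of 0.43.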
